A study of Mus musculus with 6 samples.

Results

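The S100 proteins are small calcium-binding proteins, and 8 of their genes are described here. They were chosen by symbol, with their signals on the ketogenic and chow arrays already known, so their diet differences are given as a description and without a test: S100a1, S100a4, S100a6, S100a8, S100a9, S100a10, S100a11 and S100a13. Every probe set whose platform annotation gave exactly 1 of these symbols was taken, which yielded 10 probe sets of 7 genes, out of 45101 probe sets and 18193 genes with such a symbol. S100a11 had no probe set with its symbol alone. The signals came from livers of C57BL/6 mice on 6 one-colour Affymetrix arrays, 3 for a ketogenic diet (KD, F3666), very rich in fat and very poor in carbohydrate, and 3 for chow (Labdiet 5008). All mice were 8 weeks old at the start, ate their diet for 6 weeks, and were fed ad libitum up to a morning harvest. RNA of 2 to 3 animals per diet was used. The sources used here do not give whether an array held 1 mouse or a pool, so the spread between arrays may in part be technical.

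S100 proteins form dimers that change shape when calcium binds to their EF-hand loops and then grip a target protein. Some act inside cells on the cytoskeleton and on membranes. Others, above all the S100A8 and S100A9 pair known as calprotectin, are released by activated or damaged myeloid cells and act as alarm signals on receptors such as TLR4 and RAGE. In liver, S100A8 and S100A9 are known mainly from infiltrating neutrophils and monocytes, S100A4 and S100A6 from fibroblast-like, myeloid and bile duct cells, and S100A10 as the partner of annexin A2 at membranes. S100A1 is best known from heart muscle.

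The deposited values are linear signals per probe set in arbitrary units. A background signal of 10.8 was taken from 27 bacterial control probe sets. By array it was 7.29 to 11.56 on ketogenic and 11.37 to 12.86 on chow arrays. Bounds below use 10.8 for every array. Bounds on a rise from chow signals under it would be smaller at the chow arrays' own background. Overall brightness differed between arrays, with a 2% trimmed mean of 45.8 to 61.0 on ketogenic and 39.9 to 53.5 on chow arrays. The median log2 difference (ketogenic minus chow) of the 22515 probe sets kept by the filter on dim signals was 0.22. Differences and tests below are against 0, so 0.22 is a level to set beside them. Scaling to a common array median, a common trimmed mean, quantile normalization or the hybridization controls moved that median by -0.11, -0.21, -0.23 and 0.36. The ratio of 3′ to 5′ actin signal, a sign of RNA integrity, was 1.49 to 1.63 on ketogenic and 2.00 to 2.20 on chow arrays. Its part in any difference below was not tested. In bulk liver, fewer cells of a type and less RNA per cell cannot be told apart. The labelled tissue was checked by Alb, the albumin gene of hepatocytes, which had signals of 7885 to 8070 on ketogenic and 7780 to 8417 on chow arrays.

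The alarm-signal pair was above the background on the ketogenic diet and below it on chow. S100a8 had signals of 28, 23.4 and 29.7 on the ketogenic arrays, against 3.5, 5.2 and 6 on the chow arrays. S100a9 had signals of 22.4, 24.9 and 31.2 on the ketogenic arrays, against 3.8, 5.9 and 5.1 on the chow arrays. All 3 ketogenic arrays lay above the background and all 3 chow arrays below it for both genes, and the diets did not overlap. The means were 27.0 ± 3.26 on the ketogenic diet and 4.9 ± 1.28 on chow for S100a8 (SD, n = 3 each). For S100a9 they were 26.2 ± 4.53 on the ketogenic diet and 4.93 ± 1.06 on chow (SD, n = 3 each). Counted against the background, S100a8 was at least 2.50-fold higher and S100a9 at least 2.41-fold higher on the ketogenic diet. These bounds allow for the common background of 10.8 only, not for the higher background of the chow arrays or the spread between arrays. S100a8 was read by an _s_at probe set, a type that can bind more than 1 transcript.

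The 3 ketogenic arrays did not stand in the same order for the 2 genes: array 2 was the lowest for S100a8 and array 1 for S100a9, while array 3 was the highest for both. On the chow arrays both lay under the background, where signals have no order.

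S100a4 and S100a6 showed the same arrangement. S100a4, also known as fibroblast-specific protein, binds non-muscle myosin and is made by fibroblasts and many myeloid cells. Its signals were 16.3, 27.9 and 36.5 on the ketogenic arrays, against 1.2, 5.9 and 1.6 on the chow arrays. S100a6, or calcyclin, which binds annexins and the calcyclin-binding protein, had signals of 30.2, 44.7 and 50.1 on the ketogenic arrays, against 9.3, 1.3 and 5 on the chow arrays. For both genes ketogenic array 1 was the lowest and array 3 the highest of its diet, and the chow arrays varied several-fold among themselves at levels under the background. The mean of S100a4 was 26.9 ± 10.1 on the ketogenic diet and 2.9 ± 2.61 on chow, and that of S100a6 was 41.7 ± 10.3 on the ketogenic diet and 5.2 ± 4.0 on chow (SD, n = 3 each). S100a4 was at least 2.37-fold and S100a6 at least 3.79-fold higher on the ketogenic diet. The S100a4 probe set was the only one of the 10 that the filter left out, because its mean log2 signal over all 6 arrays was too low.

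**Figure D1:**
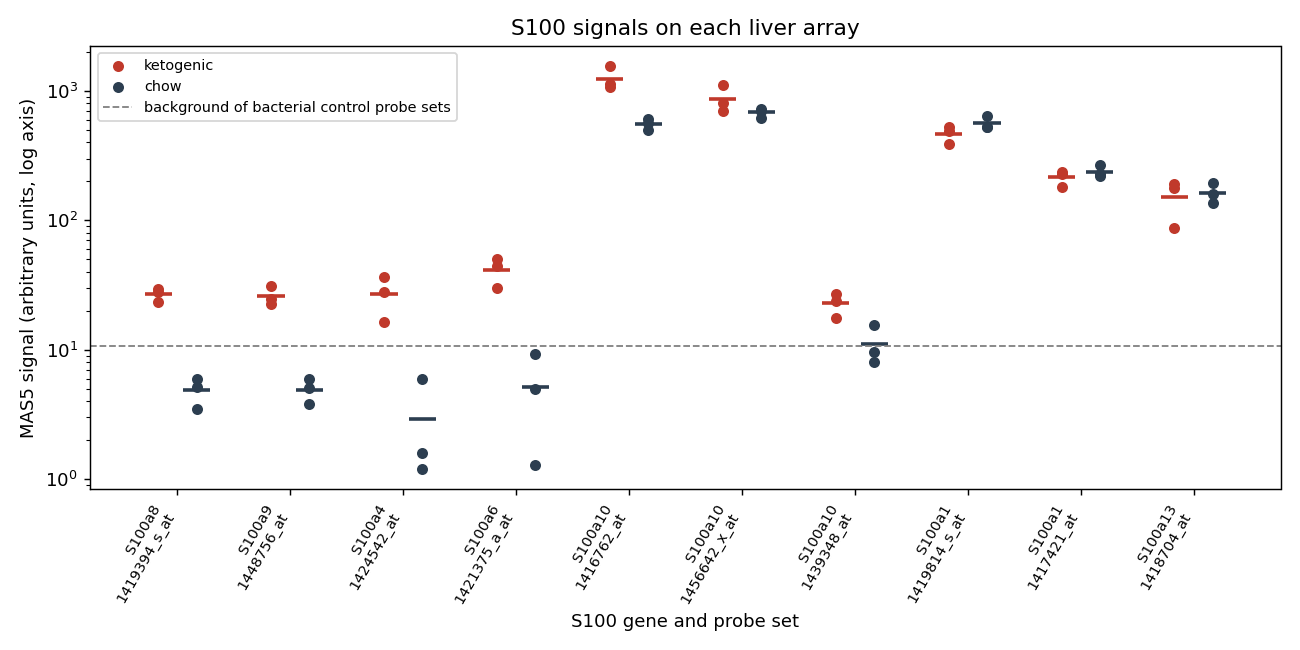
Signals of the 10 S100 probe sets on each array (points, log axis, arbitrary units) with the mean of each diet (line), ketogenic left of chow, and the background of the bacterial control probe sets (dashed, 10.8). S100a8, S100a9, S100a4 and S100a6 lay above the background on all 3 ketogenic arrays and below it on all 3 chow arrays. S100a1 and S100a13 lay above it on all arrays, and the brighter S100a1 probe set was lower on the ketogenic diet by a narrow gap.

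The region around the transcription starts of these 4 genes, whose ketogenic signals lay above the background and whose chow signals lay under it, is shown, from 250 bases before to 50 after the start, from RefSeq (GRCm38.p6), 5′ to 3′ along the gene. Capitals mark matches on either strand to 4 motifs. They are TATAAA for the core promoter element that positions transcription, TGANTCA for the factor AP-1, TTGCNNAA for the C/EBP factors and GAGGAA for the core of sites of PU.1, a factor of myeloid cells. The windows are chr3:90668821-90669120 (plus strand) for S100a8, chr3:90695672-90695971 (minus strand) for S100a9, chr3:90603520-90603819 (plus strand) for S100a4 and chr3:90612644-90612943 (plus strand) for S100a6.
S100a8: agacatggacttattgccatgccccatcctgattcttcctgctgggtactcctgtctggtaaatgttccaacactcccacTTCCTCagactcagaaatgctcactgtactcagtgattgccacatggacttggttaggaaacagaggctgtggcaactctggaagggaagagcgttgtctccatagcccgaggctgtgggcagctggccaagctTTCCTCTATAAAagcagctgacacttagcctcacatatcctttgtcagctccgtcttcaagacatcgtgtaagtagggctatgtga
S100a9: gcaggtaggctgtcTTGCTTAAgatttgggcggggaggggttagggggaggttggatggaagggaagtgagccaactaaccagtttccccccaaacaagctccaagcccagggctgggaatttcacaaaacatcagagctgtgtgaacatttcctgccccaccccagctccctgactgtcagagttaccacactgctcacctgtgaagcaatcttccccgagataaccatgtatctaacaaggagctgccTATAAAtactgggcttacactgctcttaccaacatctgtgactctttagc
S100a4: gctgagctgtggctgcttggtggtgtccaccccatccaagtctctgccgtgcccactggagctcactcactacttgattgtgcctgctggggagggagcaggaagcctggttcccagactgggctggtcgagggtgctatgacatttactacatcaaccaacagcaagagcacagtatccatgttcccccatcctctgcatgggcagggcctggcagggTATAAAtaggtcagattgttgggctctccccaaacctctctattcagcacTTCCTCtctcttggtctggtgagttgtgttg
S100a6: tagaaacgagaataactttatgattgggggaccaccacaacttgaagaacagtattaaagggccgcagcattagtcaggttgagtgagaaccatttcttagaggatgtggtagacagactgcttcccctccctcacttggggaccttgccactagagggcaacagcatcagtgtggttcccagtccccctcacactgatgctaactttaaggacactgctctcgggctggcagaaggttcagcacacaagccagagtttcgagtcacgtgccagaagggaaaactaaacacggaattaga

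A TATAAA match began 30 bases before the annotated start in S100a8 and 31 bases before it in S100a4. In S100a9 it began at the annotated start itself. GAGGAA occurred on the opposite strand 170 and 36 bases before the start of S100a8, the nearer match directly adjoining TATAAA, and 19 bases after the start of S100a4. TTGCNNAA occurred 236 bases before the start of S100a9. No motif match overlapped another. None of the 4 motifs was found in the window of S100a6. Of the 8 genes, 7 had a RefSeq window, the exception being S100a10, and of these 7, TATAAA was in 3, GAGGAA in 3, TGANTCA in 1 (S100a11) and TTGCNNAA in 1. Over all 32817 windows of the same length, 13.6% held TATAAA, 28.3% GAGGAA, 7.81% TGANTCA and 10.8% TTGCNNAA. A match is a description of the letters and not a site shown to be used.

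S100a10 was well measured on both diets and its 3 probe sets did not agree in size. S100A10 has lost calcium binding in its EF-hand loops and pairs with annexin A2 to carry membrane proteins to the cell surface and to bind plasminogen. On probe set 1416762_at the signals were 1123, 1555 and 1063 on the ketogenic arrays, against 566.2, 605.1 and 494.6 on the chow arrays, with no overlap. That probe set had a mean of 1247 ± 269 on the ketogenic diet and 555 ± 56.1 on chow (SD, n = 3 each), a log2 difference of 1.15 ± 0.26 (SE). On 1456642_x_at, a type of probe set that can bind unrelated transcripts, the signals were 800.7, 1112 and 696.0 on the ketogenic arrays, against 705.2, 722.3 and 617.7 on the chow arrays. There the diets overlapped and the log2 difference was 0.33 ± 0.27 (SE), close to the median of all kept probe sets. On the dim probe set 1439348_at the signals were 17.5, 23.8 and 27.2 on the ketogenic arrays, against 9.7, 15.6 and 8 on the chow arrays, with no overlap and 1 of the 3 chow arrays above the background. Its ketogenic signal was at least 1.84-fold higher.

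S100a1 and S100a13 were not higher on the ketogenic diet as deposited. S100A1 tunes calcium release and contraction in muscle. Its brighter probe set, 1419814_s_at, had signals of 487.3, 522.3 and 387.8 on the ketogenic arrays, against 640.6, 526.1 and 529.9 on the chow arrays, a log2 difference of -0.29 ± 0.25 (SE). The diets did not overlap there, by a narrow gap between ketogenic array 2 and chow array 2. Its other probe set, 1417421_at, had signals of 228.1, 238.4 and 180.3 on the ketogenic arrays, against 267.7, 227.7 and 219.1 on the chow arrays, which overlapped, with a log2 difference of -0.15 ± 0.25 (SE). S100A13 takes part in the release of FGF1 and interleukin 1 alpha from cells without a classical secretion signal. S100a13 had signals of 190.0, 178.0 and 87.5 on the ketogenic arrays, against 194.7, 159.9 and 136.2 on the chow arrays, a log2 difference of -0.17 ± 0.35 (SE). Ketogenic array 3 was the lowest of the 6 arrays for all 3 of these probe sets. Without it, the log2 difference of S100a13 was 0.18. With array weights it was 0.17. When scaled to the hybridization controls, the log2 differences became 0.08 and 0.21 for S100a1 and 0.19 for S100a13. That scaling also raised the median of all kept probe sets by 0.36, so the turn of sign is not particular to these genes.

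The single probe set that lists S100a11 also lists the pseudogene S100a11-ps and Gm12854, so its signal cannot be assigned to 1 of these 3 loci and was not counted. It had signals of 629.1, 709.7 and 649.2 on the ketogenic arrays, against 73.2, 40.6 and 55.1 on the chow arrays. The diets did not overlap, and its log2 difference was 3.60 ± 0.28 (SE). S100A11 itself binds annexin A1.

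Over the 10 probe sets, the ketogenic arrays lay wholly above the chow arrays for 6, wholly below them for 1, and overlapped with them for 3. Over all probe sets the corresponding shares were 14.2% above and 5.38% below, and over the kept probe sets they were 21.6% above and 5.06% below. Of the 9 probe sets kept by the filter, 4 passed the threshold of limma's test, an adjusted p of 0.05, as higher on the ketogenic diet, those of S100a6, S100a8 and S100a9 and the brightest of S100a10, and 0 passed as lower. Over all 22515 kept probe sets 4.08% passed as higher and 0.564% as lower, 4.64% in either direction. The calls over all kept probe sets split as 918 higher and 127 lower as deposited, 1068 and 312 after scaling to 1 array median, 788 and 403 after scaling to 1 trimmed mean, and 646 and 355 after quantile normalization. The genes were chosen with this comparison known, so these counts are a description and support nothing. S100a6, S100a8 and S100a9 had no chow array above the background, and their mean reached the filter through the ketogenic arrays. Without ketogenic array 2 or 3 the count was 2 each time, made up of S100a8 and S100a9. The brightest S100a10 probe set did not pass when any 1 array was left out. S100a6 did not pass without ketogenic array 2 or 3, after scaling to 1 trimmed mean, after quantile normalization or with no filter, and S100a10 also did not pass with no filter.

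**Figure D2:**
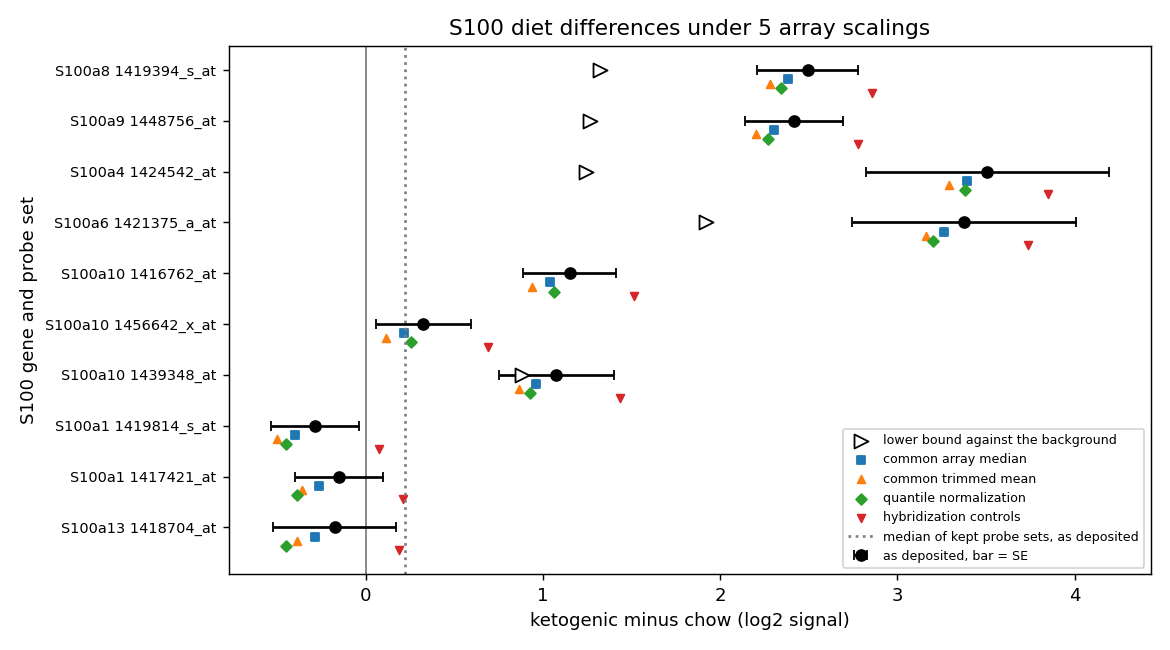
Log2 difference, ketogenic minus chow, of each S100 probe set as deposited (black, bar is the standard error of the fit) and under 4 other array scalings (coloured marks), with the median of all kept probe sets as deposited (dotted, 0.22). Open triangles give the lower bound where chow lay under the background, and there the exact difference rests on chow signals that have no order. The S100a8, S100a9, S100a4, S100a6 and S100a10 probe sets stayed above 0 under each scaling drawn, while those of S100a1 and S100a13 lay below 0 except when scaled to the hybridization controls. That scaling raised the median of all kept probe sets by 0.36.

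The 8 genes lie on mouse chromosome 3, where RefSeq places 15 S100 genes. From S100a1 to S100a9 no other protein-coding gene lies between the S100 genes. In that order S100a1 and S100a13 come first, with their starts back to back, so that their windows of 300 bases share 204 bases. S100a14, S100a16, S100a3 and S100a2 follow, then S100a4, S100a5, S100a6, S100a7a, S100a8 and S100a9. S100a7l2 comes next, past 1 other protein-coding gene. S100a11 and S100a10 lie farther along, beyond 54 other protein-coding genes, next to each other. The genes with higher ketogenic signal were therefore not an unbroken run. S100a5, between S100a4 and S100a6, had signals of 22.2, 20 and 14 on the ketogenic arrays, against 11.8, 24 and 24.5 on the chow arrays, which overlapped.

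**Figure D3:**
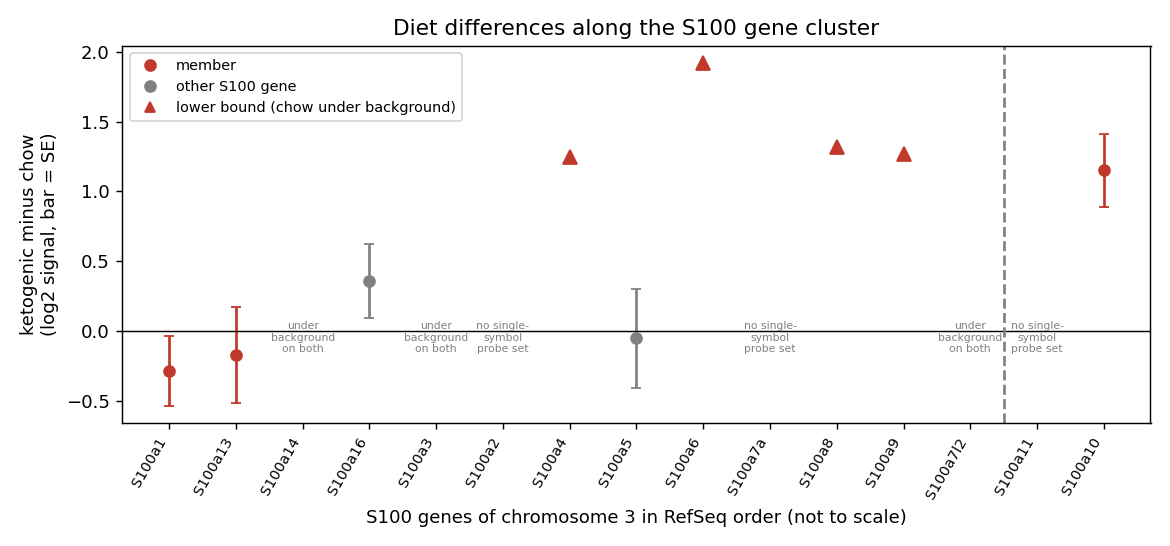
Log2 difference, ketogenic minus chow, with its standard error (circles), or its lower bound where chow lay under the background (triangles), for the S100 genes of chromosome 3 in RefSeq order, each by its brightest single-symbol probe set (members in red, other S100 genes in grey). The dashed line marks 54 other protein-coding genes, and S100a5 at -0.05 lies between S100a4, at least 2.37-fold higher, and S100a6, at least 3.79-fold higher on the ketogenic diet.

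Of 8 further S100 genes listed, 6 had a single-symbol probe set, 2 of them bright enough to be tested, and 0 passed in limma, with 0 at an unadjusted p under 0.05. S100a16, a widely expressed member, had signals of 206.8, 199.6 and 158.9 on the ketogenic arrays, against 182.7, 132.9 and 127.8 on the chow arrays. Its log2 difference was 0.36 (adjusted p = 0.486) and that of S100a5 was -0.05 (adjusted p = 0.949). S100a3, S100a14, S100b and S100g lay under the background on average on both diets, so no fold is given. S100a7l2, added after its values were seen, was also under it on all 6 arrays, with signals of 3.9, 5.5 and 2.9 on the ketogenic and 0.8, 0.6 and 0.8 on the chow arrays.

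Partners and receptors of these proteins were tested in the same fit. Of 23 listed genes, 21 were on the array with their own probe set and 18 were tested, of which 5 rose and 0 fell. Over all kept probe sets 4.08% rose and 0.564% fell, and the list was chosen with earlier results of these data known. The median log2 difference of the 18 was 0.78, against 0.22 for all kept probe sets, and 14 of the 18 were positive. Fgf1, named after its values were seen, was lower without overlap but did not pass (log2 difference -0.80, limma adjusted p = 0.213). Its signals were 151.9, 166.5 and 88.8 on the ketogenic arrays, against 225.4, 287.2 and 182.7 on the chow arrays. With array weights it passed as lower (0.0308). Anxa2, the partner of S100A10, rose: its signals were 507.0, 770.0 and 729.6 on the ketogenic arrays, against 108.1, 60.7 and 76.0 on the chow arrays. Its log2 difference was 3.05 ± 0.31 (SE), with limma adjusted p = 0.00211, and it passed under all 18 alternatives (adjusted p up to 0.0447). Its other 2 probe sets were under the filter and had log2 differences of 1.09 and 0.24. Anxa1, the partner of S100A11, rose by 2.07 ± 0.31 (log2, SE; limma adjusted p = 0.0108), with signals of 71.8, 102.9 and 135.1 on the ketogenic arrays, against 23.8, 19.7 and 28.9 on the chow arrays. Its other probe set, under the filter, had a log2 difference of -0.56. Neither annexin overlapped between diets.

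Plat, which encodes tissue plasminogen activator, rose at least 2.55-fold (limma adjusted p = 0.0314), and its signals were 30.0, 24.8 and 35.8 on the ketogenic arrays, against 11.8, 12.7 and 6.3 on the chow arrays. It did not pass in 8 of 18 alternatives, with a limma adjusted p of 0.0658 to 0.109 when 1 ketogenic array was left out and 0.0573 without chow array 3. The adjusted p over all 18 ran from 0.00396 to 0.150. Its other probe set, under the filter, had a log2 difference of -0.61. The fifth rise was that of Ahnak, a large scaffold bound by S100A10 with annexin A2, named after its values were seen, by 1.43 ± 0.28 (log2, SE; limma adjusted p = 0.0271), which did not pass without any 1 ketogenic array or without chow array 2 or 3.

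On the receptor side Cd14, the co-receptor of TLR4, rose. Its signals were 85.0, 117.4 and 72.1 on the ketogenic arrays, against 27.0, 24.7 and 14.3 on the chow arrays, a log2 difference of 2.08 ± 0.33 (SE; limma adjusted p = 0.0131). The other 7 receptors and adaptors of the list did not pass or were under the filter. Tlr4 had signals of 21.4, 26.6 and 16.4 on the ketogenic arrays, against 21.5, 32.3 and 16.9 on the chow arrays (log2 difference -0.11, limma adjusted p = 0.876). Ly96, the partner of TLR4 on the cell surface, had a log2 difference of 0.79, Bsg, also called CD147, one of 0.78, the adhesion protein gene Alcam one of 0.86 and the adaptor gene Myd88 one of 0.51 (limma adjusted p = 0.167, 0.154, 0.17 and 0.396). The diets did not overlap for Ly96, Bsg and Alcam. Bsg passed as higher with the hybridization controls (0.0198), a trended robust prior (0.0249) and array weights (0.034), Ly96 with the hybridization controls (0.0242) and array weights (0.00686), and Alcam with the hybridization controls (0.0311). Mcam, another adhesion protein gene, was under the filter, with signals of 19.5, 20.3 and 24.7 on the ketogenic arrays, against 8.7, 2.9 and 1.8 on the chow arrays, and was at least 1.99-fold higher. It passed with the floor at the background (0.0274). Ager, which encodes RAGE, was also under the filter, with overlapping signals of 22.6, 4.4 and 2 on the ketogenic arrays, against 18.4, 7 and 18.1 on the chow arrays. Without any 1 ketogenic array or without chow array 3, 3 of the 18 partner and receptor genes passed, Anxa1, Anxa2 and Cd14 each time, and the same 3 passed after scaling to 1 trimmed mean and after quantile normalization.

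Markers of the cells known to make S100 proteins differed in how many passed. The marker lists were chosen with earlier results of these data known, and over all kept probe sets 4.08% rose and 0.564% fell. Of 14 neutrophil markers, 12 were on the array and 7 were tested, of which 2 rose and 0 fell, and the median log2 difference of the 7 was -0.63. The rises were of Lcn2, lipocalin 2, which hepatocytes also make, and of Csf3r, the receptor of granulocyte colony-stimulating factor. Csf3r had signals of 25.3, 38.6 and 30.2 on the ketogenic arrays, against 6, 4.3 and 1.8 on the chow arrays, at least 2.87-fold higher (limma adjusted p = 0.00861). Its chow signals all lay under the background, and its mean reached the filter through the ketogenic arrays. With the filter at the background it was left out. Lcn2 had signals of 183.3, 319.2 and 306.7 on the ketogenic arrays, against 7, 53.2 and 0.8 on the chow arrays. It was at least 10.8-fold higher (limma adjusted p = 0.0393 with all arrays). That bound fell to 8.43-fold without chow array 1 or 3. It rose to 24.3-fold without chow array 2, the only chow array above the background. Lcn2 did not pass in 9 of 18 alternatives (adjusted p over all 18 between 0.000264 and 0.216), among them without any 1 ketogenic array or without chow array 1. It also did not pass after scaling to 1 array median or to 1 trimmed mean, or after quantile normalization. Without any 1 ketogenic array or without chow array 1, Csf3r alone passed. Mmp8, a collagenase of neutrophil granules singled out after its values were seen, had signals of 14.9, 13.7 and 8.5 on the ketogenic arrays, against 29.9, 20.4 and 25.9 on the chow arrays (log2 difference -1.06, limma adjusted p = 0.0918). It passed as lower after scaling to 1 array median, to 1 trimmed mean, after quantile normalization and with the floor at the background (adjusted p between 0.0333 and 0.047). The other 4 tested markers, all of granule proteins, did not pass as deposited: Mpo had a log2 difference of -0.63, Elane one of -0.87, Mmp9 one of -0.97 and Ngp one of -0.07. The remaining 5 were under the filter. Prtn3, a granule protease gene, had signals of 11, 12 and 12.7 on the ketogenic arrays, against 4.5, 8.7 and 7 on the chow arrays, without overlap. It was at least 1.10-fold higher against the common background of 10.8. The chow arrays' own background was 11.37 to 12.86, so no rise of Prtn3 is read from this. Ltf had overlapping signals of 18.4, 13.4 and 3.2 on the ketogenic arrays, against 19.6, 11.8 and 1.6 on the chow arrays, and Itgam overlapped too. Camp lay between 0.5 and 1.2 on the ketogenic and between 0.8 and 1.8 on the chow arrays, and Cxcr2 was also under the background on all arrays. The summed signal of the 12 markers was 375.3 to 487.5 on ketogenic and 164.7 to 212.3 on chow arrays. Without Lcn2, left out after its values were seen, it was 105.8 to 192.0 on ketogenic and 149.5 to 205.3 on chow arrays, which overlapped. The part of neutrophils in the S100a8 and S100a9 signals was not tested.

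Of 18 monocyte and macrophage markers 16 were tested, of which 11 rose and 0 fell, against 4.08% and 0.564% of all kept probe sets. The median log2 difference of the 16 was 1.86 (1.79 with 3 genes at their bound). The summed signal of the 18 was 5842 to 7190 on ketogenic and 1368 to 1727 on chow arrays. Gpnmb, abundant in lipid-laden macrophages, rose at least 12.4-fold, Cd68, a lysosomal protein of macrophages, by 2.71 and Lyz2, a lysozyme, by 2.68 (log2; limma adjusted p = 0.000927, 0.00179 and 0.00179). The chow signals of Gpnmb all lay under the background, and its mean reached the filter through the ketogenic arrays. Lyz1, another lysozyme, rose by 2.79 on an _x_at probe set, while its _at probe set had a log2 difference of 0.11 (limma adjusted p = 0.886) and Lyz1 did not pass once _s_at and _x_at probe sets were left out. Without any 1 ketogenic array 7 of these markers passed. Tested markers that did not pass as deposited included Adgre1 at 0.47, Timd4 at 0.57 and Ccr2 at -0.46 (log2), each overlapping between diets. The others were Cx3cr1 and Marco, at least 2.68-fold and 6.70-fold higher (limma adjusted p = 0.098 and 0.0654). Marco too overlapped between diets, with signals of 164.3, 223.8 and 35.1 on the ketogenic arrays, against 37, 4 and 4.2 on the chow arrays. Its bound ran from 4.68-fold to 10.1-fold with 1 array left out. Adgre1, Cx3cr1 and Marco passed as higher with array weights (limma adjusted p = 0.0377, 0.048 and 0.00249). Itgam and Trem2 were under the filter.

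Of 13 fibroblast and stellate cell markers 12 were tested, of which 9 rose and 0 fell, against 4.08% and 0.564% of all kept probe sets. The median log2 difference of the 12 was 1.71. The summed signal of the 13 was 3538 to 5089 on ketogenic and 1240 to 1556 on chow arrays. Col3a1 rose by 2.96 and Col1a2 by 2.30, both fibrillar collagen genes (log2; limma adjusted p = 0.00727 and 0.0138). By their brightest probe sets Col1a1, another, was at least 8.50-fold and Pdgfra, a growth factor receptor of fibroblasts, at least 4.03-fold higher (adjusted p = 0.0193 and 0.0351). The other Col1a1 probe set rose less, by 1.72 (log2; limma adjusted p = 0.0184), against 3.09 for that bound in log2. Pdgfra did not pass in 10 of 18 alternatives (adjusted p between 0.00122 and 0.195), among them without any 1 ketogenic array or without chow array 1 or 3, and its other probe sets had log2 differences of 0.78 and -0.08. Col1a1 did not pass in 5 of 18 alternatives, among them without ketogenic array 2 (0.0537) or 3 (0.0864), and its bound fell to 6.92-fold without ketogenic array 3. The others were scaling to 1 trimmed mean, quantile normalization and no filter. After scaling to 1 trimmed mean or after quantile normalization 3 of these markers passed, 5 passed without ketogenic array 1, ketogenic array 2 or chow array 3, and 4 passed without ketogenic array 3. The part of macrophages and fibroblast-like cells in the S100 signals was not tested.

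Of 7 endothelial markers tested all 7 had a positive log2 difference, with a median of 0.77, against 0.22 for all kept probe sets. In limma 4 had an unadjusted p under 0.05, a level whose share over all kept probe sets is not given here. Past the threshold 1 rose, the receptor Tek by 1.19 (log2; limma adjusted p = 0.0411), against 4.08% of all kept probe sets. Tek did not pass without any 1 ketogenic array or without chow array 2 or 3 (adjusted p between 0.0871 and 0.158). In limma, 0 of 3 cholangiocyte markers, 0 of 4 lymphocyte markers and 0 of 7 hepatocyte markers passed. At an unadjusted p under 0.05 there were also 0 in each of these 3 lists. The brightest tested were Sox9 at 0.37, Cd8a at 0.23 and Apoa1 at -0.18 (log2; adjusted p = 0.505, 0.765 and 0.709). The summed signal of cholangiocyte markers was 87.5 to 114.7 on ketogenic and 57.0 to 77.1 on chow arrays. That of lymphocyte markers was 123.0 to 153.6 on ketogenic and 79.0 to 110.3 on chow arrays, and that of hepatocyte markers was 37207 to 42613 on ketogenic and 42732 to 46241 on chow arrays. None of these 3 sums overlapped, but the gap of the hepatocyte markers was very narrow. Of the markers summed, 2 of 5 cholangiocyte and 5 of 9 lymphocyte markers were under the filter. Signals under the background, which have no order, thus enter these 2 sums. Endothelial markers summed to 854.4 to 1145 on ketogenic and 480.0 to 778.5 on chow arrays. All sums are of signals as deposited, and the other scalings were not tried on them.

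**Figure D4:**
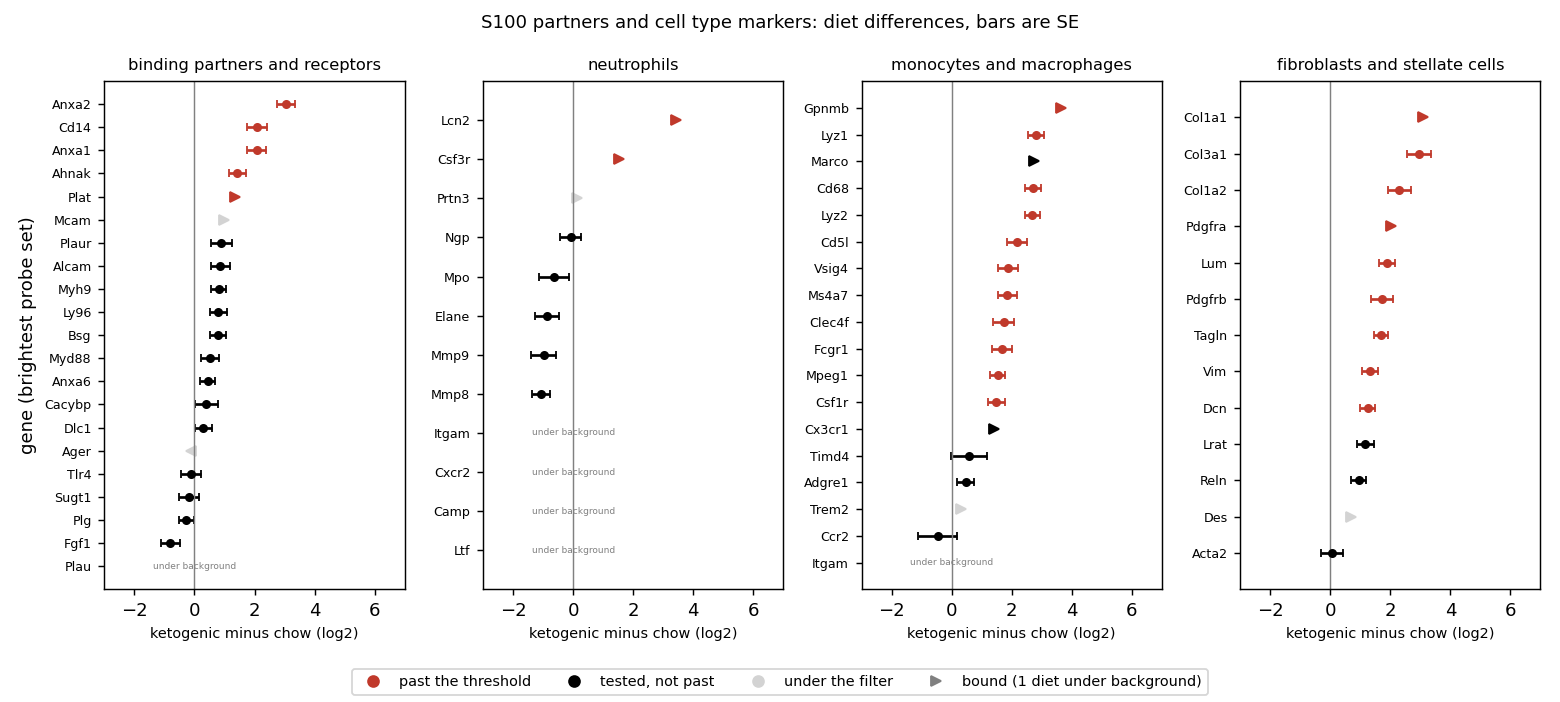
Log2 difference, ketogenic minus chow, with its standard error, of S100 partners and receptors and of markers of 3 cell types, each gene by its brightest probe set (red past limma's threshold, black tested and not past it, light grey under the filter). Triangles give the bound where 1 diet lay under the background, and genes under it on both diets have no value. Of the tested genes 5 of 18 partners and receptors, 2 of 7 neutrophil, 11 of 16 macrophage and 9 of 12 fibroblast markers rose. Over all kept probe sets 4.08% rose and 0.564% fell, and the lists were chosen with earlier results of these data known.

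For S100a10, S100a1 and S100a13, whose brightest probe sets were above the background on all 6 arrays, the genes with the nearest profile were found by the root mean square difference of centred log2 signals. For S100a10 they were Tpd52 at 0.0703 and Cd99 at 0.0856, and for S100a1 Iah1 at 0.0276 and Albfm1 at 0.032. For S100a13 they were Ube2e1 at 0.0392, whose mean signals of 10.8 on the ketogenic diet and 11.6 on chow lay close to the background, and Dlg1 at 0.0586. The arrays share their overall level, and with 6 arrays and 22515 kept probe sets such nearness is a description.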

How the data were processed

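The arrays' linear signal intensity values per probe set are as the authors deposited them, from GCOS and MAS5 according to the submitters' processing notes. Versions, scaling target and probe genome build: not given in the sources used here. No rescaling was done. Values below 1.1, the table's 10th percentile, were set to it before log2. Probe sets whose mean log2 signal reached the median, 3.35, were kept. The chow means of Plat, Lcn2, Csf3r, Gpnmb, Col1a1 and Pdgfra lay under 3.35, so these genes were kept through their ketogenic signals. The diet test was limma 3.58.1 (lmFit, eBayes; R 4.3.3), two-sided, Benjamini-Hochberg adjusted over 22515 kept probe sets, with 4 residual and 4.68 prior degrees of freedom, and was tested on simulated data. The background averages, over arrays on a log2 scale, the bacterial controls' 95th percentile. For a bound, signals are raised to it and the lower of 2 ratios, of arithmetic or of geometric means, is taken. A gene is its brightest probe set. Members and lists were chosen with earlier results of these data known. The text names up to 4 passing genes per list by largest difference, or the brightest if none passed, and the 2 nearest profiles of each member above the background on all arrays (those of the others rest on signals under it and are not given). Platform annotation gave 34958 probe sets 1 symbol, 932 several and 9211 none listed, and 34754 matched RefSeq. Replicates were numbered in accession order and pair nothing. The 6 arrays limit the precision. Other scalings, floors, filters, priors, weights and left-out arrays were tried.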

Additional observations from a re-analysis of the deposited data

How the results depend on the processing

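Other scalings, floors, filters, priors, array weights and the omission of each array were tried, 16 alternatives for probe sets and 18 for gene lists. As deposited 918 probe sets were higher and 127 lower. Scaled to the hybridization controls 4985 were higher, and 312, 403 and 355 were lower with a common array median, a common trimmed mean and quantile normalization. A floor at the background gave 1658 and 284, no filter 140 and 38, a trended robust prior 1578 and 294, and array weights 4698 and 1098. Leaving out 1 array gave 291 to 895 higher and 39 to 107 lower. The S100 count of 4 became 2 without the filter and 2 to 3 with 1 array left out. The partner and receptor count of 5 became 3 after scaling to 1 trimmed mean and after quantile normalization, 11 with hybridization controls, 1 without the filter, 10 (9 higher, 1 lower) with array weights and 3 to 5 with 1 array left out. The neutrophil count of 2 became 1 with quantile normalization (Mmp8, lower), with the filter at the background and with a trended robust prior, 0 without the filter, and 1 to 2 with 1 array left out. With a common array median or a common trimmed mean it stayed 2, but as 1 higher (Csf3r) and 1 lower (Mmp8). With the floor at the background it was 3, of which 2 were higher and 1 lower. The macrophage count of 11 became 4 without the filter and 7 to 10 with 1 array left out. The fibroblast count of 9 became 3 after scaling to 1 trimmed mean and after quantile normalization, 0 without the filter, and 4 to 7 with 1 array left out. Signs turned for S100a5 (0.31 with hybridization controls, 0.029 with array weights, and -0.40 to 0.14 with 1 array left out), Cd8a (-0.039 with quantile normalization, -0.33 with array weights, and -0.064 to 0.53 with 1 array left out) and Apoa1 (0.19 with hybridization controls), none of them past the threshold. Every member probe set kept its sign under these alternatives except those of S100a1 and S100a13. With the floor at the background the log2 differences of S100a8, S100a9, S100a4 and S100a6 shrank to 1.32, 1.27, 1.25 and 1.92. No paired analysis was possible because the labels give no replicate numbers. The cause was not tested. Signals under the background have no order, which limits S100a8, S100a9, S100a4 and S100a6 to bounds.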
